A study of Mus musculus with 8 samples.

Results

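Interferon response genes are the receptors, transcription factors, nucleic acid sensors and induced antiviral proteins of the interferon pathway. A list of 43 such genes, chosen by name, was followed in sorted mouse kidney cells with and without Emcn, the gene of endomucin, a sialomucin of the endothelial surface coat. Of the 43 members, 39 stood on lines of the deposited count table that held all 8 counts, among 17326 such gene lines. All 39 passed the low-count filter and were tested among 16477 genes. The other 4 members, Ifi27, Parp9, Parp14 and Dtx3l, stood on incomplete lines and were not analysed here.

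The libraries were made from polyadenylated RNA of mouse kidney cells separated by fluorescence-activated sorting. The 4 groups of 2 libraries were endothelium with genotype EMCN+/+, called wild type here, endothelium with genotype EMCN-/-, called knockout, and podocytes of each of these 2 genotypes. The replicates are numbered 2 and 3 in every group. Strain, age, how Emcn was deleted, the sorting markers and whether a library came from 1 animal or a pool are not given in the sources used here. The p-values therefore measure the spread between these libraries, which may be partly technical.

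The libraries held between 10478956 and 17386042 counts on complete lines, of which mitochondrial genes took 10.1% to 26.2%. Emcn had 25953 and 25261 counts in wild-type endothelium and 2460 and 2081 in knockout endothelium. In podocytes it had 1143 and 495 counts in wild type against 90 and 67 in knockout. Summed over 12 endothelial markers, the podocyte libraries reached 9.13% of the endothelial level, and 1 of the 12, Cldn5, was higher in podocytes. Of 12 podocyte markers, 6 were on complete lines, and their sum in endothelium was 14.9% of that in podocytes. The sums of 8 of 12 tubule markers lay between 3334 and 15710 CPM, which are counts scaled to a common library total, and overlapped between the cell types. In such bulk libraries, more cells of a type and more RNA per cell cannot be told apart.

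Interferons are secreted proteins that cells release on sensing viral nucleic acid or other danger. Type I interferons bind a receptor of the chains Ifnar1 and Ifnar2, and interferon gamma binds a receptor of the chains Ifngr1 and Ifngr2. Type I signals reach the nucleus through a complex that includes Stat2 and Irf9 and binds the interferon-stimulated response element (ISRE) in the promoters of target genes. Interferon gamma acts mainly through the gamma-activated sequence (GAS). Many target genes are also expressed at a low tonic level without infection. In the kidney glomerulus, fenestrated endothelium and podocytes face each other across the basement membrane that filters the blood.

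Some members carry the ISRE core in the promoter, and 6 are shown here because the same element stands before genes that differ in their cell-type pattern. They are the members of highest mean level with a match to the core, which is GAAA, any 2 bases and GAAA. Both strands were read over the 250 bases before a RefSeq transcription start (GRCm38.p6). Each stretch is written 5′ to 3′ on the strand of the gene, in lower case, with the matched core in capitals on whichever strand it was found and overlapping matches run together.
Ifitm2: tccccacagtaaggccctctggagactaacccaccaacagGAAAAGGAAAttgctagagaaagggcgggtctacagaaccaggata
Ifit3: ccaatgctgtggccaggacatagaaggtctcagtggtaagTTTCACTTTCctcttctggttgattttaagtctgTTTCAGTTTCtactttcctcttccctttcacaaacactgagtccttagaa
Rsad2: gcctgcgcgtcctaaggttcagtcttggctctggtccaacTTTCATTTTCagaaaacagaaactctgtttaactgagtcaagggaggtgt
Irgm1: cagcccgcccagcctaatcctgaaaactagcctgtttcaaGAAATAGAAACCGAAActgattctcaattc
Bst2: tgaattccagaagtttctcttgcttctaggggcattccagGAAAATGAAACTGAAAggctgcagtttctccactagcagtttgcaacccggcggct
Gbp7: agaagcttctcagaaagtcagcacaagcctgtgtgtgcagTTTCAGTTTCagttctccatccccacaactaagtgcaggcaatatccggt
The Ifitm2 stretch is chr7:140955962-140956047 on the minus strand, and its core begins 46 bases before the start. For Ifit3 the stretch is chr19:34583333-34583456 on the plus strand, with 2 cores beginning 156 and 122 bases before the start. The Ifitm2 and Ifit3 stretches lie inside the RefSeq span of their genes, so the starts they precede are internal ones. Rsad2 is shown at chr12:26456523-26456612 on the minus strand, with its core 120 bases before the start. Irgm1 is shown at chr11:48871421-48871490 on the minus strand, with 2 overlapping cores. Bst2 lies on the minus strand, and its stretch with 2 overlapping cores is chr8:71537547-71537642. The Gbp7 stretch is chr3:142530243-142530332 on the plus strand, with its core 53 bases before the start.

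RefSeq windows matched 32 of the 39 members by Entrez gene ID. The ISRE core was present in 13 of the 32, or 40.6%, against 3.32% of the 12063 tested genes with a window. The GAS letters, TTC, any 3 bases and GAA, were present in 9 of the 32, or 28.1%, against 7.29% of tested genes. In 4 members both were found, and in 1 of them the matches overlapped. Because the list is one of interferon targets, these shares describe it and are not a test. A match is a run of letters and not a measured binding site.

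The first comparison set the 4 endothelial libraries against the 4 podocyte libraries, averaging the genotypes. Interferon response genes were mostly higher in endothelium: 24 of the 39 members were higher, 2 were lower, Ifngr1 and Ifit2, and 13 did not pass the test. A gene was called at a Benjamini-Hochberg adjusted p under 0.05 over all tested genes, by edgeR's quasi-likelihood test. Among all tested genes 7.19% were called higher and 11.1% lower, so the share of members called higher was far above the background. The number called lower, 2 here, was 1 to 3 under other settings and is too small to set against its background. The median log2 fold change of the members was 0.90, against 0.0017 over all tested genes. For 25 members every endothelial library exceeded every podocyte library, which held for 9.59% of all tested genes. Summed over 16 immune-cell markers, out of 28 listed, the endothelial libraries had 49.0 to 86.3 CPM and the podocyte libraries 102 to 141 CPM. Csf1r alone gave 67.9 to 106.9 CPM of the podocyte sums and 4.99 to 12.3 CPM of the endothelial sums. Leaving it out, a choice made after its values were seen, turned the direction: the other 15 markers summed to 44.0 to 77.6 CPM in endothelium and 31.9 to 37.8 CPM in podocytes. By mean level 14 of the 16 immune markers were higher in endothelium, and their part in the members' differences was not tested.

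**Figure D1:**
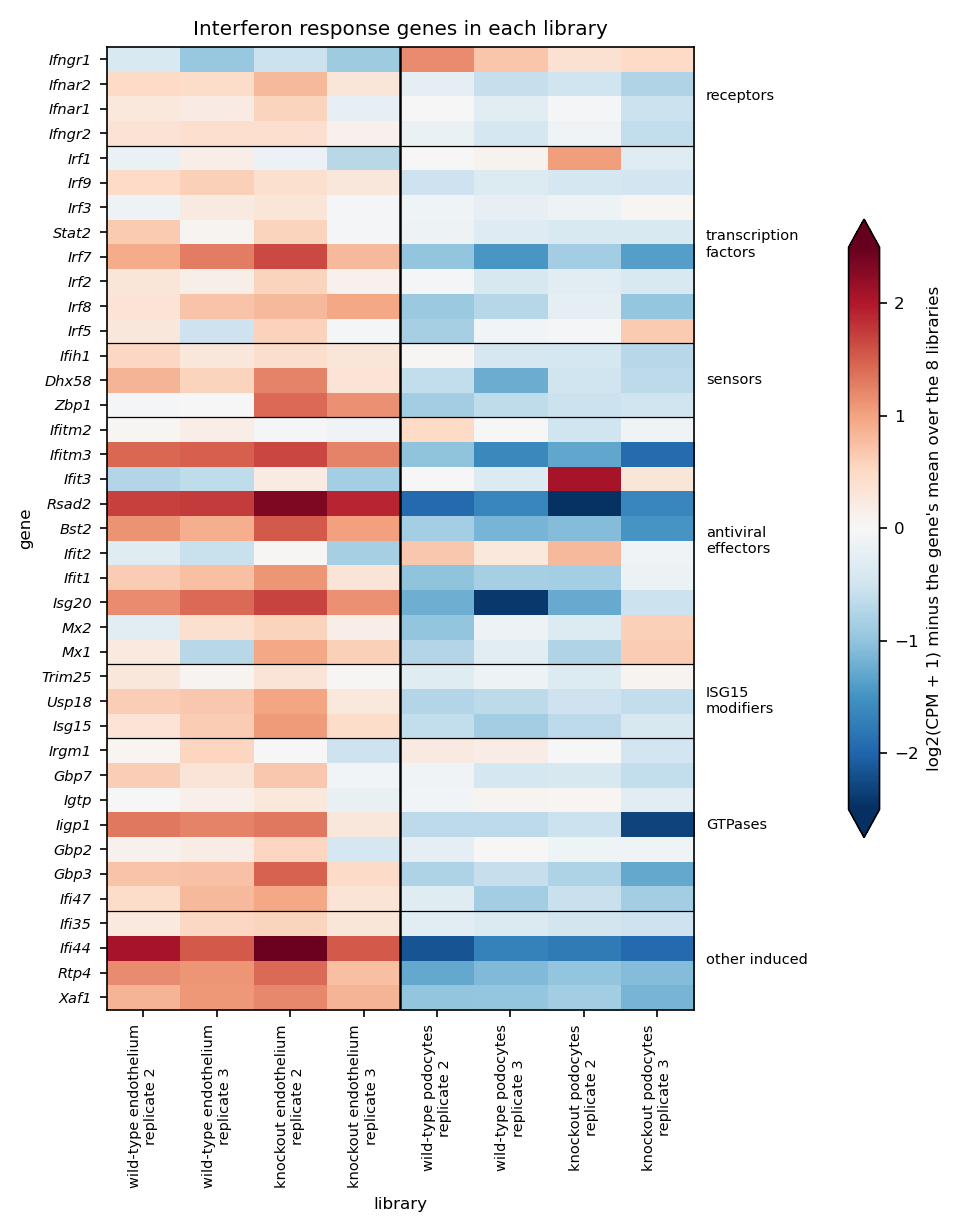
Level of each of the 39 interferon response genes (rows, grouped by role) in each of the 8 libraries (columns), as log2(CPM + 1) minus the mean of the gene over the libraries, with red above and blue below that mean. The 4 endothelial columns are red for most genes, while Ifngr1, Ifit2 and Ifit3 run the other way.

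The receptor chains did not move as one. Ifngr1, the chain that binds interferon gamma, had 285 and 193 CPM in wild-type and 257 and 199.9 CPM in knockout endothelium, against 851 and 606 CPM in wild-type and 486 and 527 CPM in knockout podocytes. Every podocyte library was above every endothelial library, and the log2 fold change of endothelium over podocytes was −1.38 (adjusted p 0.0007 by edgeR, SE 0.20). Ifnar2, a chain of the type I receptor, had 164 and 159 CPM in wild-type and 202 and 142 CPM in knockout endothelium, against 97.7 and 77.0 CPM in wild-type and 81.1 and 68.6 CPM in knockout podocytes. It was higher in endothelium in every library pair, by a log2 fold change of 1.04 (adjusted p 0.00161 by edgeR, SE 0.17). Ifngr2, the signalling partner of Ifngr1, was higher by 0.66 (adjusted p 0.0258 by edgeR, SE 0.18), a call that was lost without replicate 2 or 3 of wild-type endothelium, replicate 2 of knockout endothelium, or replicate 3 of wild-type or knockout podocytes (adjusted p 0.0577 to 0.0977). Ifnar1, the other type I chain, had 134 and 129 CPM in wild-type and 165 and 96.9 CPM in knockout endothelium, against 112 and 92.3 CPM in wild-type and 109 and 76.8 CPM in knockout podocytes, and its log2 fold change was 0.43 (adjusted p 0.183 by edgeR, SE 0.20), short of the threshold. Within the gamma receptor, the binding chain was thus lower and its partner higher in endothelium.

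Among the 8 transcription factors, 4 were higher in endothelium, none was lower, and 4 did not pass. Irf7, which amplifies type I interferon production, had 76.6 and 96.9 CPM in wild-type and 126 and 70.5 CPM in knockout endothelium, against 19.4 and 13.9 CPM in wild-type and 21.1 and 14.7 CPM in knockout podocytes. No podocyte library reached the lowest endothelial one, and the log2 fold change was 2.42 (adjusted p 4.9e-05 by edgeR, SE 0.24). Irf8, best known as a myeloid and dendritic cell factor, had 16.9 and 22.1 CPM in wild-type and 23.8 and 26.5 CPM in knockout endothelium, against 6.42 and 7.62 CPM in wild-type and 10.9 and 6.19 CPM in knockout podocytes. The groups again did not overlap, and Irf8 was higher by 1.51 (adjusted p 0.00149 by edgeR, SE 0.25). By their sum the immune markers were higher in podocytes with Csf1r and higher in endothelium without it. The part of immune cells in the level of Irf8 was not tested. Irf9, the DNA-binding part of the type I complex, had 112 and 119 CPM in wild-type and 103 and 96.0 CPM in knockout endothelium, against 54.2 and 61.5 CPM in wild-type and 57.8 and 55.8 CPM in knockout podocytes and was higher by 0.90 (adjusted p 0.0012 by edgeR, SE 0.14). Stat2, its partner, was higher by 0.65 (adjusted p 0.0417 by edgeR, SE 0.20). This call was lost without any 1 of 6 libraries, both podocyte replicates of each genotype and replicate 2 of each endothelial group, and under limma voom (adjusted p 0.0554 to 0.167).

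Of the factors that did not pass, Irf1, an early gamma-responsive activator, had 220.4 and 279 CPM in wild-type and 222 and 152 CPM in knockout endothelium, against 249.97 and 263 CPM in wild-type and 514 and 201 CPM in knockout podocytes. Its log2 fold change was −0.48 (adjusted p 0.27 by edgeR, SE 0.27), and without replicate 3 of knockout podocytes it was −0.75 and passed at an adjusted p of 0.0239 by edgeR. Irf2, a competitor of Irf1 on the same sites, had a log2 fold change of 0.58 (adjusted p 0.0532 by edgeR, SE 0.18) and passed under DESeq2's test, with scaling by library size only, and with a minimum mean of 5 CPM. Irf3, the factor that sensors activate first, had 0.20 (SE 0.16) and Irf5, which acts downstream of Toll-like receptors, had 0.17 (SE 0.34). Neither passed, and the libraries of the cell types overlapped.

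The 3 nucleic acid sensors were all higher in endothelium. Dhx58, a helicase of the RIG-I family, had 13.8 and 11.1 CPM in wild-type and 18.4 and 9.46 CPM in knockout endothelium, against 4.34 and 2.47 CPM in wild-type and 4.85 and 4.20 CPM in knockout podocytes. The endothelial libraries all lay above the podocyte libraries, with a log2 fold change of 1.74 (adjusted p 0.0031 by edgeR, SE 0.32). Ifih1, the helicase that senses long double-stranded RNA, was higher by 0.79 (adjusted p 0.0133 by edgeR, SE 0.19), though not without replicate 3 of wild-type podocytes, where the adjusted p was 0.0576 by edgeR. Zbp1, which binds Z-form nucleic acid and can start necroptosis, was a low-level gene with 2.51 and 2.61 CPM in wild-type and 8.60 and 6.97 CPM in knockout endothelium, against 0.972 and 1.31 CPM in wild-type and 1.49 and 1.55 CPM in knockout podocytes. Endothelium was the higher, by 1.76 (adjusted p 0.00592 by edgeR, SE 0.36).

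Antiviral effectors held the widest range of differences. Of 10 members, 5 were higher in endothelium, 1 was lower and 4 did not pass. Rsad2, or viperin, which makes a nucleotide that stops viral RNA synthesis, had 250.4 and 259.6 CPM in wild-type and 388 and 288 CPM in knockout endothelium, against 19.0 and 24.0 CPM in wild-type and 12.9 and 24.0 CPM in knockout podocytes. The lowest endothelial library was many times the highest podocyte library, and the log2 fold change was 3.88 (adjusted p 2.7e-06 by edgeR, SE 0.24). Isg20, an exonuclease, was much scarcer, with 12.9 and 15.4 CPM in wild-type and 18.8 and 12.5 CPM in knockout endothelium, against 1.62 and 0.145 CPM in wild-type and 1.55 and 3.24 CPM in knockout podocytes. It was higher by 3.34 (adjusted p 0.00104 by edgeR, SE 0.52), on counts as low as 25 and 2 in the wild-type podocyte libraries. Bst2, or tetherin, which holds budding virus at the cell surface, had 140.3 and 121 CPM in wild-type and 189 and 131 CPM in knockout endothelium, against 35.3 and 28.02 CPM in wild-type and 29.8 and 22.5 CPM in knockout podocytes. Its groups stood apart, with a log2 fold change of 2.33 (adjusted p 1.3e-05 by edgeR, SE 0.19).

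Ifitm3 and Ifitm2 are genes of the same family on chromosome 7, whose proteins block virus entry at endosomes. Ifitm3 had 885 and 926 CPM in wild-type and 1049.5 and 775 CPM in knockout endothelium, against 162 and 106 CPM in wild-type and 133 and 86.2 CPM in knockout podocytes, and was higher in endothelium by 2.91 (adjusted p 1.1e-05 by edgeR, SE 0.23). Ifitm2 had 539 and 583 CPM in wild-type and 505 and 489.9 CPM in knockout endothelium, against 728 and 514 CPM in wild-type and 367 and 485 CPM in knockout podocytes. These ranges overlapped, and the log2 fold change of Ifitm2 was 0.04 (adjusted p 0.924 by edgeR, SE 0.18), with a 95% interval from −0.37 to 0.44. Per kilobase of exon, the level of Ifitm3 was 1340.4 ± 167 CPM in endothelium and 179.7 ± 48.7 in podocytes (SD, n = 4). For Ifitm2 the same values were 808 ± 63.0 and 799 ± 229 CPM per kilobase (SD, n = 4). By mean level per kilobase, Ifitm2 was thus the higher of the pair in podocytes and Ifitm3 in endothelium. How any reads shared by the pair were assigned is not given in the sources used here.

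**Figure D2:**
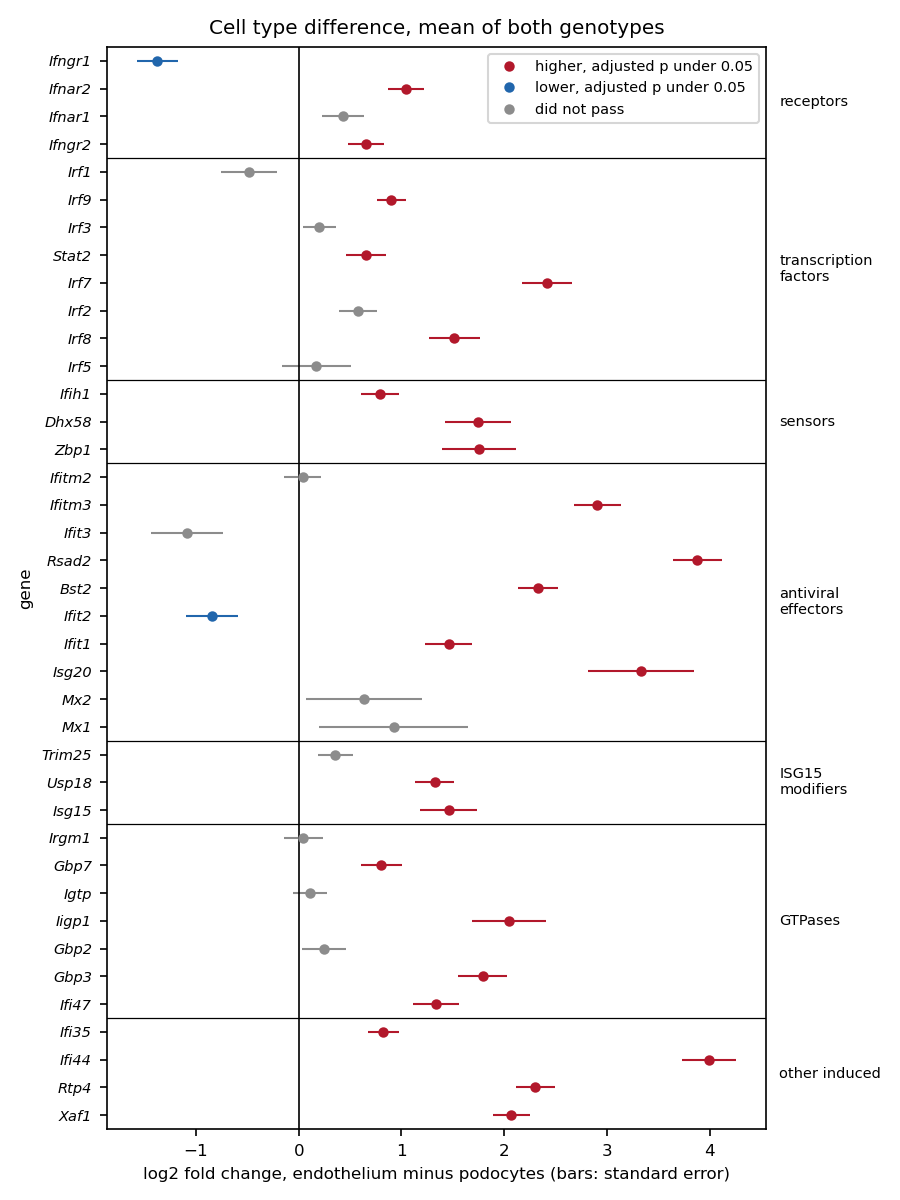
Log2 fold change of endothelium over podocytes for each of the 39 members (mean of both genotypes, 4 libraries against 4, bars standard error), coloured by call. Ifi44 and Rsad2 lie farthest to the right, near 4, and Ifngr1 lies farthest to the left.

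The Ifit genes, which lie next to one another on chromosome 19, split by direction. Ifit1, which binds viral RNA that lacks cap methylation, had 58.8 and 63.8 CPM in wild-type and 81.3 and 47.1 CPM in knockout endothelium, against 18.1 and 20.6 CPM in wild-type and 20.3 and 33.4 CPM in knockout podocytes. It was higher in endothelium by 1.46 (adjusted p 0.0011 by edgeR, SE 0.23). Ifit2, a binding partner of Ifit1, had 64.7 and 54.2 CPM in wild-type and 81.5 and 44.4 CPM in knockout endothelium, against 128 and 96.6 CPM in wild-type and 140.0 and 74.7 CPM in knockout podocytes. It was lower in endothelium, with a log2 fold change of −0.84 (adjusted p 0.0398 by edgeR, SE 0.25). Its groups overlapped, because knockout endothelium replicate 2 was above knockout podocyte replicate 3, and the call was lost with library-size scaling, with a minimum mean of 5 CPM, and without any 1 of the libraries other than replicate 2 of knockout endothelium and replicate 3 of knockout podocytes (adjusted p 0.0588 to 0.182). Ifit3, which stabilises Ifit1, had 87.8 and 93.4 CPM in wild-type and 169 and 80.2 CPM in knockout endothelium, against 146 and 114 CPM in wild-type and 607 and 179 CPM in knockout podocytes. Its log2 fold change of −1.09 (adjusted p 0.0556 by edgeR, SE 0.35) did not pass by edgeR but did by DESeq2, at an adjusted p of 0.00874. Without replicate 2 of knockout endothelium it was −1.41 with an adjusted p of 0.0269, and without replicate 3 of knockout podocytes −1.40 with an adjusted p of 0.00322, both by edgeR. Mx1 and Mx2, dynamin-like GTPases, were at most 4 CPM in any library and had log2 fold changes of 0.92 (SE 0.72) and 0.63 (SE 0.57). Neither passed.

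Isg15, a ubiquitin-like protein attached to newly made proteins, had 9.42 and 11.7 CPM in wild-type and 16.1 and 10.3 CPM in knockout endothelium, against 4.34 and 3.48 CPM in wild-type and 4.22 and 5.24 CPM in knockout podocytes. It was higher in endothelium by 1.46 (adjusted p 0.00422 by edgeR, SE 0.28). Usp18, which removes Isg15 and also brakes signalling at Ifnar2, had 57.4 and 60.0 CPM in wild-type and 75.4 and 44.8 CPM in knockout endothelium, against 22.0 and 23.4 CPM in wild-type and 25.8 and 23.9 CPM in knockout podocytes and was higher by 1.32 (adjusted p 0.000686 by edgeR, SE 0.19). Trim25, a ubiquitin ligase that acts in RIG-I signalling, had 0.36 (SE 0.17) and did not pass. A modifier and its remover were thus both higher, at levels that differed by more than the spread between libraries.

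Of the 7 interferon-inducible GTPases, which coat and disrupt vacuoles of intracellular pathogens, 4 were higher in endothelium and 3 did not pass. Iigp1 had 111 and 105 CPM in wild-type and 110.3 and 53.5 CPM in knockout endothelium, against 27.5 and 27.5 CPM in wild-type and 29.6 and 7.96 CPM in knockout podocytes and was higher by 2.05 (adjusted p 0.00252 by edgeR, SE 0.36). Its spread was wide, since knockout podocyte replicate 3 was far below the other podocyte libraries. Gbp3 had 54.9 and 55.2 CPM in wild-type and 93.7 and 46.4 CPM in knockout endothelium, against 18.8 and 21.6 CPM in wild-type and 18.9 and 12.9 CPM in knockout podocytes and was higher by 1.79 (adjusted p 0.000395 by edgeR, SE 0.24). Ifi47 was higher by 1.34 (adjusted p 0.00158 by edgeR, SE 0.22). Gbp7 was higher by 0.80 (adjusted p 0.0172 by edgeR, SE 0.20), but not without replicate 2 of wild-type or knockout endothelium, or replicate 3 of wild-type podocytes, where the adjusted p by edgeR was 0.0608, 0.0708 and 0.0747. Irgm1 regulates the other immunity-related GTPases and had the highest mean CPM of the 7. By mean level per kilobase of exon, Igtp was above Irgm1 in both cell types. Irgm1 had 142 and 200.2 CPM in wild-type and 136 and 96.1 CPM in knockout endothelium. In podocytes Irgm1 had 159.6 and 157 CPM in wild type and 137 and 98.8 CPM in knockout. Its log2 fold change was 0.04 (SE 0.19), with 0.11 (SE 0.17) for Igtp and 0.25 (SE 0.21) for Gbp2. None of these 3 passed, and their libraries overlapped between the cell types.

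The remaining 4 members were all higher in endothelium. Ifi44, a cytoplasmic protein strongly induced by type I interferon, had 131 and 90.9 CPM in wild-type and 174 and 90.3 CPM in knockout endothelium, against 6.09 and 8.78 CPM in wild-type and 8.26 and 7.23 CPM in knockout podocytes. It had the largest difference of the 39, a log2 fold change of 3.99 (adjusted p 4.1e-06 by edgeR, SE 0.27). Rtp4, a chaperone of membrane receptors that also restricts viruses, had 95.2 and 90.9 CPM in wild-type and 113 and 70.6 CPM in knockout endothelium, against 16.5 and 18.8 CPM in wild-type and 20.5 and 19.2 CPM in knockout podocytes and was higher by 2.30 (adjusted p 1.3e-05 by edgeR, SE 0.19). Xaf1, an antagonist of the apoptosis inhibitor XIAP, had 53.5 and 63.6 CPM in wild-type and 68.8 and 53.6 CPM in knockout endothelium, against 14.4 and 14.6 CPM in wild-type and 15.6 and 12.5 CPM in knockout podocytes and was higher by 2.07 (adjusted p 1.9e-05 by edgeR, SE 0.18). Ifi35, a leucine-zipper protein of the cytosol, was higher by 0.82 (adjusted p 0.00341 by edgeR, SE 0.15). None of these 4 genes overlapped between the cell types.

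Podocyte levels were set beside those of endothelial markers as a scale for endothelial RNA in the podocyte libraries. The podocyte mean was 6.74% of the endothelial mean for Rsad2 and 6.25% for Ifi44, below the 9.13% of the summed endothelial markers. Without Cldn5 that share was 6.50%, and the median over single markers was 6.44%, so that Ifi44 alone lay below either. All other members were above 9.13% in podocytes. The nearest were Isg20 at 11.0%, Ifitm3 at 13.4%, Irf7 at 18.7%, Bst2 at 19.9% and Rtp4 at 20.3%. Single endothelial markers ran from 2.84% for Egfl7 to 10.4% for Eng, 21.9% for Plvap and 214% for Cldn5. These members thus lay within the range of the single markers. Ifngr1 stood at 264%, Ifit3 at 243%, Ifit2 at 179.5% and Irf1 at 140.4%. The part of endothelial RNA in the podocyte level of any member was not tested.

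**Figure D3:**
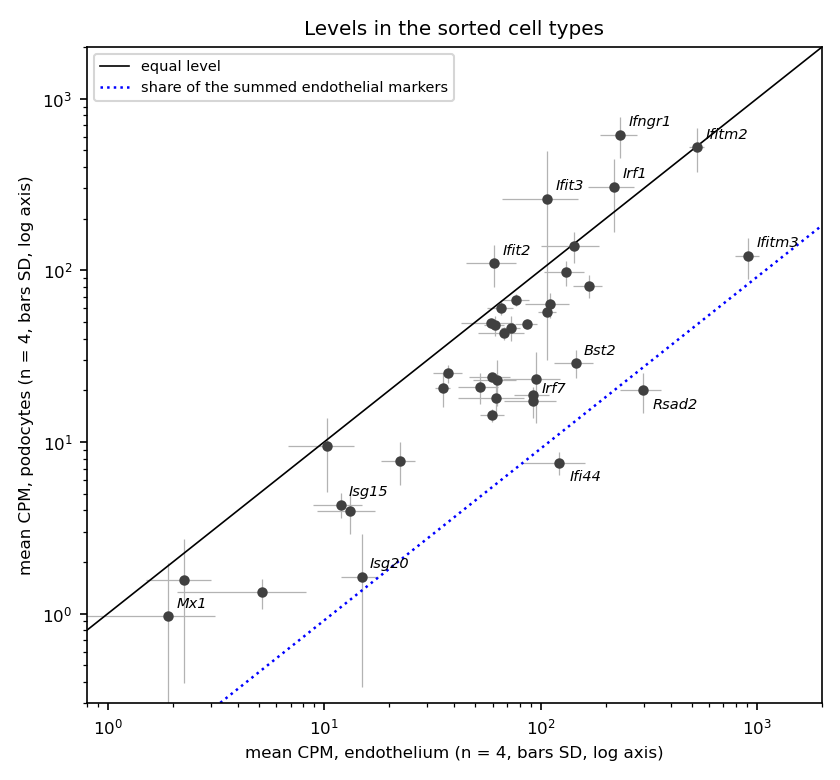
Mean CPM of each member in podocytes (y axis, log scale) against endothelium (x axis, log scale), with bars for SD over 4 libraries, a solid line of equal level and a dotted line at the 9.13% share of the summed endothelial markers. Most points lie between the lines, Rsad2 and Ifi44 lie under the dotted line, and Ifngr1, Ifit2, Ifit3 and Irf1 lie above the solid line.

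Promoter matches stood before both called and uncalled members. Of the 24 members higher in endothelium, 19 had a window and 7 of these held the ISRE core. Among the 13 that did not pass, 11 had a window and 6 held it, and neither of the 2 lower members did. The 6 promoters printed above show the same mixture, with Rsad2, Bst2 and Gbp7 higher in endothelium, and Ifitm2, Ifit3 and Irgm1 not called.

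In wild-type cells alone, with 2 libraries against 2, 17 members were higher in endothelium and 1, Ifngr1, was lower. The background there was 4.26% higher and 4.73% lower. The median log2 fold change of the members was 0.89, against −0.01 over all tested genes. Rsad2 was higher by 3.57 (adjusted p 0.000107 by edgeR, SE 0.33), Ifi44 by 3.90 (adjusted p 0.000126 by edgeR, SE 0.37), Ifitm3 by 2.76 (adjusted p 0.000345 by edgeR, SE 0.32) and Isg20 by 3.96 (adjusted p 0.00694 by edgeR, SE 0.76). Ifngr1 was lower, with a log2 fold change of −1.61 (adjusted p 0.00453 by edgeR, SE 0.29). This call was lost without replicate 3 of wild-type endothelium (adjusted p 0.0581 by edgeR) and without replicate 2 of wild-type podocytes (adjusted p 0.0674 by edgeR), which left no member called lower. Fewer members, and also fewer of all tested genes, were called when any wild-type library was left out. With 1 library left out, the members' median log2 fold change was 0.86 to 1.01. These wild-type libraries are also part of the average over genotypes, so the 2 comparisons share samples.

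The wider pathway was read from other lists of interferons, signalling parts, sensors, antigen presentation genes and interferon-stimulated genes, which together had 86 tested genes. In endothelium 38 of the 86 were higher than in podocytes, averaged over genotypes, and 6 were lower, beside the 7.19% and 11.1% of all tested genes. By smallest p, the 5 leading higher genes were Phf11b, Ifi207, Oas1a, Gbp9 and Sp100. Phf11b, a PHD finger gene, was higher by 3.69 (SE 0.25) and Ifi207, of the AIM2-like receptor family, by 4.09 (SE 0.29). Oas1a, which makes the oligoadenylates that activate RNase L, was higher by 3.19 (SE 0.24), Gbp9 by 3.42 (SE 0.26), and the nuclear body protein Sp100 by 2.65 (SE 0.21).

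The genes of these wider lists that were lower in endothelium included Tlr7, an endosomal RNA receptor, at a log2 fold change of −3.12 (SE 0.33). Ifitm1, of the same family as Ifitm3 but of opposite direction, had −2.23 (SE 0.36), and the chemokine Cxcl10 had −1.92 (SE 0.21). Nampt, an enzyme of NAD synthesis, had −0.64 (SE 0.17). The call of Nampt was lost with library-size scaling and without replicate 2 or 3 of wild-type endothelium, or replicate 2 of knockout endothelium, wild-type podocytes or knockout podocytes (adjusted p 0.0511 to 0.169).

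The second question was whether loss of Emcn altered these genes. No member passed the test in endothelium, in podocytes, in their average, or in the difference between the cell types. The background was as sparse: 0.00607% of tested genes, Emcn alone, passed in each of the first 3 comparisons, and 0% in the last. By edgeR at an unadjusted p under 0.05, 1 member passed in endothelium, 1 in podocytes, 3 in the average (Ifit3, Zbp1 and Irgm1) and none in the difference between cell types. The corresponding shares of all tested genes were 5.49%, 4.43%, 8.59% and 2.6%. DESeq2's test and limma voom likewise called no member in any of the 4.

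The median log2 fold change of knockout over wild type was 0.06 over the members in endothelium and −0.03 in podocytes, against 0.005 and 0.023 over all tested genes. The unadjusted 95% interval of a member's change lay within 1 log2 unit of 0 for 25 of 39 members in endothelium and for 23 in podocytes. For the average of both cell types it did so for 32. For the other members the interval also held larger changes. Endothelial groups did not overlap for 4 members that were higher and 3 that were lower in the knockout, with 24.8% and 19.7% of all tested genes as background. Podocyte groups did not overlap for 5 higher and 6 lower members, beside 15.1% and 16%.

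**Figure D4:**
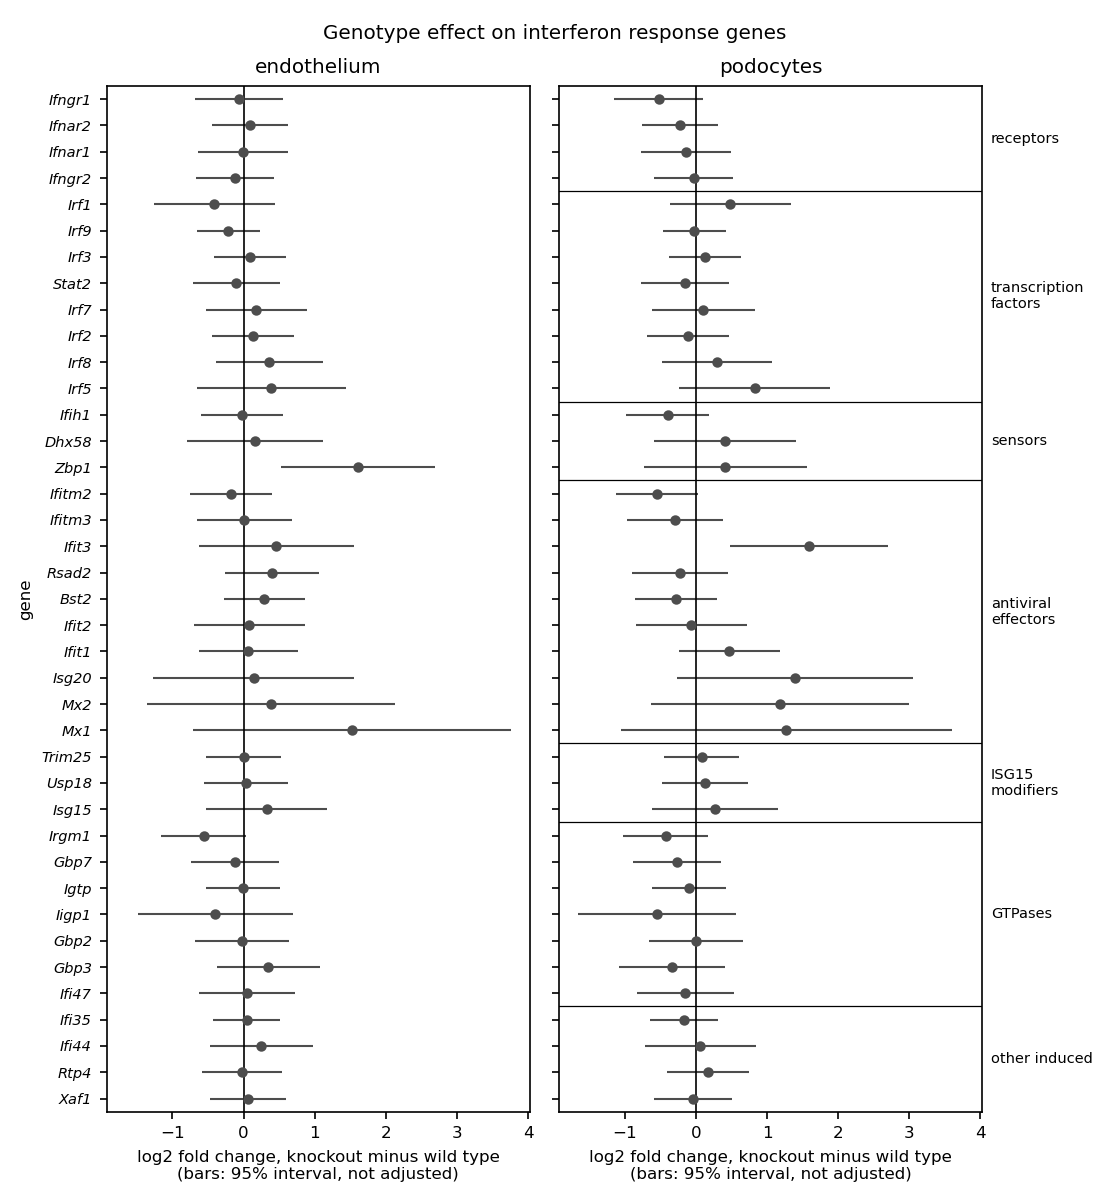
Log2 fold change of knockout over wild type for each of the 39 members in endothelium (left) and podocytes (right), with unadjusted 95% intervals as bars. The interval leaves out 0 for Zbp1 in endothelium and for Ifit3 in podocytes, and no member passed after adjustment.

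The members with the smallest unadjusted p show how far single libraries reach. Zbp1 had 33 and 36 counts in wild-type endothelium and 122 and 81 in knockout endothelium, or 2.51 and 2.61 against 8.60 and 6.97 CPM. The groups did not overlap, and the log2 fold change of 1.60 (SE 0.49) had a p of 0.00787 by edgeR and 0.716 after adjustment. Ifit3 had 2255 and 1574 counts in wild-type podocytes and 9773 and 2434 in knockout podocytes. The log2 fold change of 1.59 (SE 0.50) had a p of 0.00938 by edgeR and 0.978 after adjustment. Without replicate 2 of knockout podocytes it was 0.46, and without replicate 3 it was 2.22. Irgm1 had a mean log2 fold change over both cell types of −0.49 (SE 0.19), at a p of 0.0259 by edgeR and 0.558 after adjustment.

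For 4 of the members called between cell types, and for Isg20, the genotype groups are set side by side here. Rsad2 had a log2 fold change of 0.41 (SE 0.30) in endothelium and −0.22 (SE 0.31) in podocytes. Ifi44 had 0.25 (SE 0.33) and 0.06 (SE 0.35), and Ifitm3 had 0.01 (SE 0.30) and −0.29 (SE 0.30). Ifngr1 had −0.07 (SE 0.28) in endothelium and −0.53 (SE 0.28) in podocytes. Isg20, which differed more between cell types than Ifitm3, is given in counts. In endothelium it had 170 and 213 in wild type and 266 and 145 in knockout. In podocytes it had 25 and 2 in wild type and 25 and 44 in knockout. None of these genotype changes passed the test, and the cell-type differences of the same genes were several times their SE.

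The 2 libraries of a group were not alike in these genes, most of all in knockout endothelium. There 38 of 39 members were higher in replicate 2 than in replicate 3, with Irf8 the exception, and the median difference of replicate 3 minus replicate 2 was −0.52 on the log2 CPM scale. Over all tested genes that median was −0.04, and 47.2% were higher in replicate 3. Knockout endothelium replicate 2 was the highest of the 4 endothelial libraries for 30 members, against 29.1% of all tested genes. Knockout endothelium replicate 3 was the lowest for 26 members, against 24.2% of all tested genes. The wild-type endothelial libraries split 23 to 16, the wild-type podocyte libraries 18 to 21 and the knockout podocyte libraries 12 to 27, counting members higher against lower in replicate 3.

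Other measures differed between these replicates too, and most of them did so in the same direction in wild-type endothelium. The tubule marker sum was 3334 CPM in knockout endothelium replicate 2 and 7148 CPM in replicate 3, with 7272 and 15710 CPM in replicates 2 and 3 of wild-type endothelium. Umod, Calb1 and Cdh16 were lower in knockout endothelium replicate 2 than in replicate 3, and the other 5 of the 8 tubule markers were higher. The endothelial marker sum was 12791 and 10527 CPM in the knockout replicates, and 11525 and 9809 CPM in wild-type endothelium. Mitochondrial genes took 10.1% of the counts in knockout endothelium replicate 2 and 19.6% in replicate 3. They also took 13.3% and 26.2% in replicates 2 and 3 of wild-type endothelium, where the members split 23 to 16. Plvap, which marks endothelium with diaphragmed pores, was at 1070.3 CPM in knockout endothelium replicate 2 and 68.6 CPM in replicate 3, with 368 and 215 CPM in wild-type endothelium. The mural and mesangial marker sum was 518 and 312 CPM in these knockout replicates, and 669 and 431 CPM in wild-type endothelium. The immune marker sum without Csf1r was 72.9 and 55.4 CPM in the knockout replicates, and 77.6 and 44.0 CPM in wild-type endothelium. The part of any of these in the members' levels was not tested. Without replicate 2 of knockout endothelium the members' median genotype change in endothelium was −0.25, and without replicate 3 it was 0.33. The sign of the endothelial median therefore rests on which of these 2 libraries is kept.

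**Figure D5:**
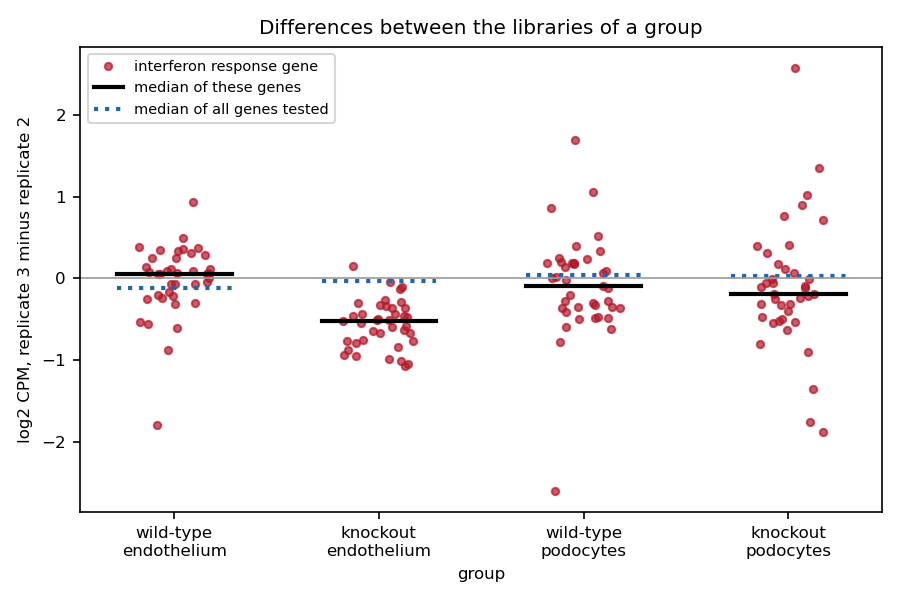
Difference of replicate 3 minus replicate 2 in log2 CPM for each of the 39 members (points) within each of the 4 groups, with the members' median as a solid line and the median of all tested genes as a dotted line. In knockout endothelium 38 of 39 points lie below 0, while the other groups spread to both sides.

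In podocytes a single library stood out for a few genes. Ifit3 was at 607 CPM in knockout podocyte replicate 2, against 114 to 179 CPM in the other podocyte libraries. Ifit3b, a near copy of Ifit3, had 54.4 and 53.3 CPM in wild-type and 221 and 50.0 CPM in knockout podocytes, with the same library high. Irf1 was at 514 CPM in that library, against 201 to 263 CPM in the other podocyte libraries. Ifit2, at 140.0 and 74.7 CPM in the knockout podocyte replicates and 128 and 96.6 in wild type, and Ifit1, at 20.3 and 33.4 CPM in knockout and 18.1 and 20.6 in wild type, did not stand apart there. For Irf1 the podocyte genotype change was 0.48 (SE 0.38) with that library and −0.35 without it. The same library had the highest sum of 7 mural and mesangial markers, 982 CPM against 312 to 754 CPM in the other 7 libraries. Its tubule marker sum was 6658 CPM, against 6114 to 12757 CPM in the other podocyte libraries, and Umod and Calb1 were lowest there. Of the 8 tubule markers 5 (Lrp2, Cubn, Aqp1, Aqp2 and Cdh16) were the highest of the 4 podocyte libraries in this one. Its level of Ren1, the renin gene, was 195 CPM, against 0.380 to 104 CPM. Its immune marker sum of 141 CPM was the highest of the 8, with Csf1r at 106.9 CPM against 67.9 to 76.4 CPM in the other podocyte libraries. Without Csf1r that sum was 34.4 CPM, within the range of the other podocyte libraries. The part of these in the levels of Ifit3 and Irf1 was not tested.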

How the data were processed

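The authors deposited one table of read counts per gene for 8 libraries, without scaling. Per the submitters' processing notes the build was mm10 and DESeq2 was used; aligner, counter and strand setting are not given in the sources used here. Of 22533 gene lines, 5207 (23.11%) held fewer than 8 counts and were left out, because their counts cannot be placed in columns. Reads of the 14 members that overlap another gene in RefSeq (Dhx58, Gbp2, Gbp3, Ifi47, Ifih1, Ifit1, Ifnar2, Irf2, Irf5, Isg15, Rtp4, Stat2, Trim25 and Usp18) may be split or mixed with that gene.

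Genes passing filterByExpr were fitted with edgeR 4.0.16 in R 4.3.3 (TMM scaling, quasi-likelihood F test, 1 mean per group over all 8 libraries), with Benjamini-Hochberg adjustment over 16477 genes and a threshold of 0.05. The SE is the log2 fold change divided by the root of F. CPM use TMM-scaled library sizes; per-kilobase values use GENCODE M21 exon lengths. The code was tested on simulated data. Alternatives used DESeq2 1.42.0, limma 3.58.1, other scalings and filters, a replicate block, and each library left out.

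The members and gene lists were chosen with earlier results of these data known. Text values were given for members past the threshold, the receptors, the transcription factors and the highest member of each role; for up to 5 genes in each direction of the wider lists by smallest p; and for promoters of up to 6 members with the ISRE core by mean CPM. Other members were named after their values were seen. Protein sequences were not used here. Some genes of the wider lists are not reported here. Replicate numbers were not taken as pairs, since no label ties them to an animal or day. The column names of the deposited counts join genotype, number and cell type. They do not say whether a shared genotype and number means the same animal, and that pairing was not fitted.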

Additional observations from a re-analysis of the deposited data

How the results depend on the processing

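Across scaling, filter, tool and block settings and with each library left out in turn, no called member changed direction between cell types, and 21 of the 26 called in the average of genotypes stayed called wherever they were tested. Zbp1, one of the 21, was not tested with a minimum mean of 5 CPM. The other 5 are Ifngr2, Stat2, Ifih1, Ifit2 and Gbp7. The number called was 24 to 28 under other settings and 21 to 26 with 1 library left out. In wild-type cells it was 15 to 21 and 9 to 18. Under the other settings 2347 to 3435 of all tested genes were called between cell types, and 1178 to 1831 in wild-type cells. The genes tested there numbered 10138 to 17326, depending on the filter. The counts with 1 library left out are given without such a range, because a group of 1 library has no spread of its own. No member was called for genotype under any of these settings or with any library left out. Scaling by library size only moved the median of all tested genes by 0.33 for genotype in endothelium, 0.11 in podocytes, 0.22 in their average and 0.21 in their difference, and by 0.17 between cell types; the members' medians were then 0.42 in endothelium, 0.24 in the average and 0.33 in the difference. With 1 library left out, the members' median was −0.25 to 0.33 in endothelium and −0.27 to 0.34 in the difference between cell types. Where a group was left with 1 library, it was assumed to vary like the others. Counts were few for Mx1, Mx2 and Isg20, down to 5, 6 and 2 in a library.

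With replicate number as a block, 28 members were called between cell types, sharing all 26 of the unblocked fit and adding Irf2 and Ifit3. In wild type 21 were called, sharing 18, and none was called for genotype. Of all 16477 tested genes, 3435 were called between cell types with this block, against 1184 higher and 1836 lower without it. In wild type 1831 were called, against 702 higher and 779 lower. The deviations of same-numbered libraries from their group means had correlations of 0.18 for wild-type with knockout endothelium, 0.17 for wild-type with knockout podocytes, 0.11 for knockout endothelium with knockout podocytes, and −0.14, −0.11 and −0.01 for the other 3 pairs of groups. Mitochondrial share and tubule marker sum were higher in replicate 3 in all 4 groups. With 2 numbers and no label that ties them, the number is not taken as a pairing. With the podocyte numbers swapped in the block, a choice made after seeing the data, 24 members were called between cell types, without Stat2 and Ifit2. In wild type 15 were called. Of all tested genes 2912 and 1357 were called in these comparisons.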

Other observations

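The interferon transcripts that could be read were scarce in every library. Of 20 interferon genes listed, 10 were on complete lines and the other 10 were not analysed here. Of those read, 8 passed the low-count filter, and the highest count in any library was 66, for Ifna2 in knockout endothelium replicate 2. Ifna2 had 25 and 5 counts in wild-type endothelium, 66 and 27 in knockout endothelium, 10 and 29 in wild-type podocytes and 24 and 34 in knockout podocytes. Ifna4 had 16 and 20, 24 and 42, 18 and 18 and 11 and 12 counts in the same groups. Type I interferon genes are near copies of one another, so reads may be split among them. None of the 8 passed edgeR's test for genotype after adjustment. Before adjustment, 1 was under 0.05 in podocytes and none in endothelium, beside 4.43% and 5.49% of all tested genes.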
